A study of Mus musculus with 9 samples.

Results

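The protein kinase C family was examined in mouse hearts, through 8 genes, Prkca, Prkcb, Prkcd, Prkce, Prkch, Prkci, Prkcq and Prkcz, of the 19935 genes that had a probe set with a single gene symbol. The genes were chosen by name as protein kinase C isoforms, and the family was picked from these data with the difference of Prkcq between the genotypes already known. That difference is therefore given as a description, and no support is drawn from the limma results for Prkcq below. Where several single-symbol probe sets named a gene, the one brightest on average across the 9 arrays was read, and Prkch and Prkcz each had a second probe set, so that 10 probe sets stood for the 8 genes.

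Affymetrix arrays were hybridised with RNA from adult mice of a mixed C57BL/6 background, 1 array per heart, the tissue being right ventricle with the interventricular septum. The 4 Ezh2-deficient hearts had the genotype Ezh2f/f;Mef2cAHF::Cre, that is, floxed Ezh2 alleles with a Cre recombinase under the anterior heart field enhancer of Mef2c, and the 5 wild-type hearts had the genotype Ezh2f/f without Cre. The titles of the wild-type samples give f/wt instead, which the labels do not reconcile. Cre was present in one group alone, so loss of Ezh2 and presence of Cre cannot be told apart, and the enhancer drives Cre in embryonic progenitors of the right heart and septum, so cells of other origin in the tissue lie outside the reach of the deletion. The Ezh2 probe set itself read 8.88 ± 0.11 in Ezh2-deficient hearts and 8.73 ± 0.12 in wild-type hearts (SD, n = 4 and 5; difference 0.15, SE 0.07, limma adjusted p = 0.485). It therefore does not check the labels, and "Ezh2-deficient" below is the label. The 10 cardiomyocyte markers examined, such as Myh6 and Actc1, each lay above at least 99.09% of probe sets, as the labelled tissue implies.

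Protein kinases C are serine and threonine kinases that relay signals from the cell membrane. Receptors coupled to the G protein Gq activate phospholipase C, which releases diacylglycerol and, through inositol trisphosphate, calcium. The conventional isoforms alpha and beta respond to diacylglycerol and calcium, the isoforms delta, epsilon, eta and theta to diacylglycerol alone, and the atypical isoforms iota (named lambda in mouse) and zeta to neither, being held instead by polarity scaffolds. In heart muscle these kinases act downstream of adrenergic, angiotensin and endothelin receptors, with the alpha isoform known as a regulator of contractility and delta and epsilon for their parts in ischaemic injury and protection. Theta is best known from T-cell receptor signalling and from skeletal muscle.

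Polycomb repressive complex 2, of which Ezh2 is a catalytic subunit, is known in mammals to act largely at promoters rich in the dinucleotide CG, so the promoters of the family are shown first. RefSeq windows of the build GRCm38.p6, each running from 250 bases before to 50 bases after a transcription start, were at hand for 6 of the 8 genes, in 9 windows; Prkce and Prkch are named only. The upstream 250 bases are printed for Prkcq, whose probe set differed most, and for Prkcd, an isoform of the same calcium-independent class, in its window with more CG. They run 5′ to 3′ on the strand of the gene, at chr2:11172132-11172381 on the plus strand for Prkcq and chr14:30626209-30626458 on the minus strand for Prkcd, with each CG in capitals.
Prkcq: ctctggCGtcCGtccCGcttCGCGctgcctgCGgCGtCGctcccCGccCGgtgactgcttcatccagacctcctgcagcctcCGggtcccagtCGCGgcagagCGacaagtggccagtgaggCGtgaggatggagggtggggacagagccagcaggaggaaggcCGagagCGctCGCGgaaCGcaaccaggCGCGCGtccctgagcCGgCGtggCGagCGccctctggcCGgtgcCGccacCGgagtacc
Prkcd: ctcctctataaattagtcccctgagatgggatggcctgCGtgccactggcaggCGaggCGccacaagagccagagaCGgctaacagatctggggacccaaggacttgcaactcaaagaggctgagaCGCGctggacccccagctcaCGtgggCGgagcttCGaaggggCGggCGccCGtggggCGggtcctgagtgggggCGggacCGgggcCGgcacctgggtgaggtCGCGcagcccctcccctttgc
CG reads the same on both strands, and its occurrences cannot overlap. The full window of Prkcq held 37 CG, and 5.58% of the 32851 mouse windows held at least as many, the median being 7. The window of Prkca held 42 (3.03% of windows held as many), and the most CG-rich windows of Prkcz, Prkcd, Prkci and Prkcb held 31, 26, 22 and 19. The other Prkcd window held 2, and the other windows of Prkcz held 14 and 13. Prkcq was thus not the most CG-rich of the 6 genes with a window, since Prkca held more. These are counts of letters and show neither binding nor methylation.

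Values below are deposited log2 expression values, on which a difference of 1 is a doubling of signal, and they are listed by heart in the order of the replicate numbers. Prkcq read 8.11, 8.26, 8.18 and 8.15 in the Ezh2-deficient hearts, against 6.88, 6.75, 7.10, 7.10 and 6.81 in the wild-type hearts. Every Ezh2-deficient heart lay more than 1 log2 unit above the highest wild-type heart, and the 4 Ezh2-deficient hearts spanned a narrower range than the wild-type hearts. The means were 8.17 ± 0.06 and 6.93 ± 0.16 (SD, n = 4 and 5), a difference of 1.25 with a standard error of 0.08 and a fold of 2.38. In wild-type hearts the probe set lay below every array median (7.19 to 7.25) and in Ezh2-deficient hearts above. Only 9 of the 28815 probe sets, Prkcq included, had a difference of this size or more in either direction.

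**Figure D1:**
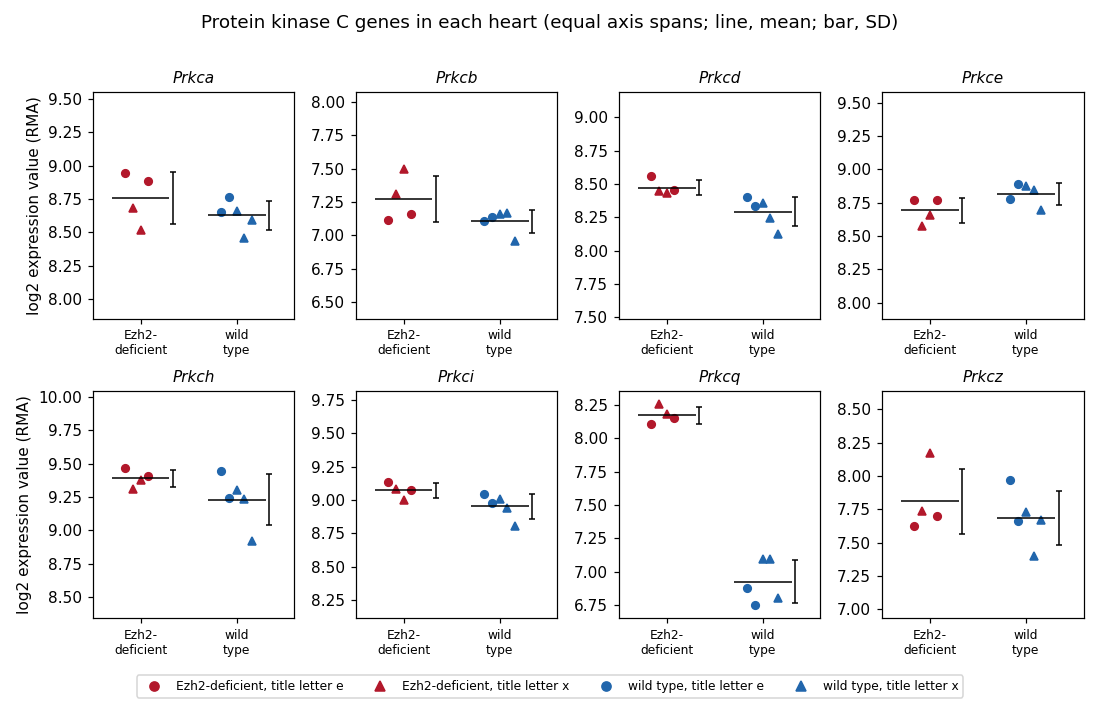
Log2 expression value (y axis, RMA) of each protein kinase C gene in every heart, Ezh2-deficient in red and wild type in blue, with circles and triangles for the letters e and x of the sample titles, a line at the mean and a bar for the SD. All panels span the same number of log2 units, and the groups lie over 1 log2 unit apart for Prkcq, narrowly apart for Prkcd and overlapping for the other 6.

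Of the 8 genes 1, Prkcq, had a limma adjusted p under 0.05, where 0.0347% of all probe sets had (10 of 28815, with 0.0243% higher and 0.0104% lower in Ezh2-deficient hearts). Since the family was picked with that call known, nothing is read from this count. The other 7 genes did not pass. Their differences had a median of 0.13, beside -0.006 over all probe sets, and 6 of the 7 had a higher mean, as had 47.1% of all probe sets. Among these 7, 1 (Prkcd) had an unadjusted p under 0.05, where 10.7% of all probe sets had. At the brightest probe set of each gene, the 95% intervals of the 7 differences, not adjusted for multiple tests, lay between -0.26 and 0.41. A change over 1.33-fold in either direction lay outside each of those intervals. The second probe set of Prkch had a wider interval, from -0.72 to 0.26.

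Among the isoforms that need diacylglycerol but not calcium, delta had the smallest p after theta. Prkcd read 8.56, 8.44, 8.43 and 8.46 in Ezh2-deficient hearts, against 8.40, 8.34, 8.36, 8.25 and 8.12 in wild-type hearts. The Ezh2-deficient hearts all lay above the wild type, as they did at 1.79% of all probe sets, but the gap between them was 0.03 and the order rested on small distances. The difference was 0.18 (SE 0.06, 95% interval 0.04 to 0.32, limma adjusted p = 0.342), about 1.13-fold.

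Prkce, the epsilon isoform, was the only member with a lower mean in Ezh2-deficient hearts. It read 8.77, 8.57, 8.66 and 8.77 there, against 8.78, 8.89, 8.88, 8.85 and 8.69 in wild-type hearts. Wild-type heart 5 lay inside the Ezh2-deficient range, and the other 4 wild-type hearts lay above it. The difference was -0.12 (SE 0.06, 95% interval -0.26 to 0.009, limma adjusted p = 0.497).

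Prkch, the eta isoform, known from epithelium and also found in endothelium, read 9.47, 9.31, 9.38 and 9.41 in Ezh2-deficient hearts. In wild-type hearts it read 9.45, 9.24, 9.31, 9.24 and 8.92. The difference of 0.16 (SE 0.09, 95% interval -0.04 to 0.37, limma adjusted p = 0.571) was 0.08 without wild-type heart 5, the lowest of all 9 hearts. A second Prkch probe set, annotated with a single transcript of another accession, read 7.27, 7.52, 6.19 and 7.17 in Ezh2-deficient hearts and 7.24 to 7.29 in wild-type hearts. Its difference had the opposite sign (-0.23, SE 0.22, limma adjusted p = 0.743), and Ezh2-deficient heart 3 lay about 1 log2 unit below the others. Endothelial markers ran in the same direction as the main Prkch probe set, with 10 of 10 higher in mean, 0 past limma's test, 3 at an unadjusted p under 0.05, and a list mean of 10.37 to 10.48 in Ezh2-deficient hearts against 9.80 to 10.40 in wild-type hearts. Wild-type heart 5 was the lowest for these markers as well as for Prkch. It was also the lowest of all 9 hearts for the T-cell, B-cell, platelet, macrophage, fibroblast, smooth muscle and erythrocyte means. It was not the lowest for the skeletal muscle, neural and cardiomyocyte means. The part of endothelial cell number in the Prkch values was not tested. In RNA from whole tissue, fewer cells of a type and less RNA per cell cannot be told apart.

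The conventional isoforms also overlapped between the groups. Prkca, encoding alpha, read 8.95, 8.69, 8.52 and 8.88 in Ezh2-deficient hearts, against 8.65, 8.77, 8.66, 8.46 and 8.60 in wild-type hearts. The Ezh2-deficient hearts held both a high pair, hearts 1 and 4, and a heart below most of the wild type. The difference was 0.13 (SE 0.09, 95% interval -0.08 to 0.34, limma adjusted p = 0.647), and ran from 0.07 without Ezh2-deficient heart 1 to 0.21 without Ezh2-deficient heart 3.

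Prkcb, encoding beta, which is prominent in B cells, read 7.11, 7.31, 7.50 and 7.16 in Ezh2-deficient hearts, against 7.11, 7.14, 7.16, 7.16 and 6.96 in wild-type hearts. Ezh2-deficient hearts 2 and 3 lay above all the wild type and hearts 1 and 4 among them. The difference was 0.17 (SE 0.08, 95% interval -0.02 to 0.35, limma adjusted p = 0.507), and 0.09 without Ezh2-deficient heart 3. That heart also had the highest means of B-cell markers (7 of 8 listed were measured), at 6.59 against 6.12 to 6.20 in the other Ezh2-deficient hearts and 5.93 to 6.17 in wild-type hearts. Its erythrocyte markers (4 of 8 measured) stood at 8.25, against 7.22 to 7.29 in the other Ezh2-deficient hearts and 6.82 to 7.36 in wild-type hearts. Its T-cell, platelet, macrophage, neural and fibroblast means were also the highest of all hearts, and its cardiomyocyte mean was the lowest. Ezh2-deficient heart 2, whose Prkcb also lay above all the wild type, had the lowest B-cell mean of its group, 6.12. Of these B-cell and erythrocyte markers 0 passed limma's test and 0 had an unadjusted p under 0.05, and the part of blood cells in the Prkcb values was not tested.

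Of the atypical isoforms, Prkci, which binds the polarity proteins of the Par complex, read 9.13, 9.08, 9.0 and 9.08 in Ezh2-deficient hearts. In wild-type hearts it read 9.05, 8.98, 9.01, 8.94 and 8.80, so that Ezh2-deficient heart 3 lay among the wild type and the other 3 above it. The difference was 0.12 (SE 0.06, 95% interval -0.007 to 0.24, limma adjusted p = 0.487).

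Prkcz, encoding zeta, read 7.63, 7.74, 8.17 and 7.70 in Ezh2-deficient hearts, against 7.97, 7.66, 7.73, 7.40 and 7.67 in wild-type hearts. At the main probe sets it had the widest scatter of the 8 genes in either group. The difference of 0.12 (SE 0.13, 95% interval -0.17 to 0.41, limma adjusted p = 0.767) became 0.003 without Ezh2-deficient heart 3, 0.05 without wild-type heart 4 and 0.19 without wild-type heart 1. The second Prkcz probe set was tighter, at 6.62, 6.70, 6.62 and 6.61 in Ezh2-deficient hearts and 6.48, 6.54, 6.38, 6.65 and 6.55 in wild-type hearts. It gave the same difference of 0.12 with a standard error of 0.06 (limma adjusted p = 0.485).

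A single wild-type heart bore on several members. Wild-type heart 5 was the lowest wild-type heart for 5 of the 8 genes, namely Prkcb, Prkcd, Prkce, Prkch and Prkci, whereas for Prkca and Prkcz it was heart 4 and for Prkcq heart 2. Without wild-type heart 5 the differences of Prkcd, Prkci and Prkce were 0.14, 0.08 and -0.16, and that of Prkcq was 1.22. Wild-type hearts 4 and 5 were also left out together, a pair chosen with earlier results of these data known. Without them Prkcq differed by 1.27, Prkcb by 0.14, Prkcd by 0.11 and Prkce by -0.16. The differences of Prkca, Prkch, Prkci and Prkcz were then 0.06, 0.06, 0.06 and 0.02, smaller than with all arrays, as were those of Prkcb and Prkcd.

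The sample titles carry a letter e or x whose meaning the labels do not give, with 2 Ezh2-deficient and 2 wild-type hearts under e and 2 and 3 under x. Prkcq differed by 1.31 within e and 1.22 within x, so its difference was nearly as large in either set. Prkcd differed by 0.14 and 0.20, Prkci by 0.09 and 0.12, Prkch by 0.09 and 0.19 and Prkce by -0.06 and -0.19, each with the same sign in both. Prkca was larger within e, at 0.21 against 0.03 within x. Prkcb was larger within x, at 0.31 against 0.01 within e, and Prkcz had opposite signs, -0.15 within e and 0.35 within x. The interaction of genotype and letter was not past limma's threshold for any of the 8, as for 0% of all probe sets. Before adjustment 1 member, Prkcb, had a p under 0.05, where 6.12% of all probe sets had. The limma adjusted p of the interaction was 0.732 for Prkcb and for Prkcz.

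**Figure D2:**
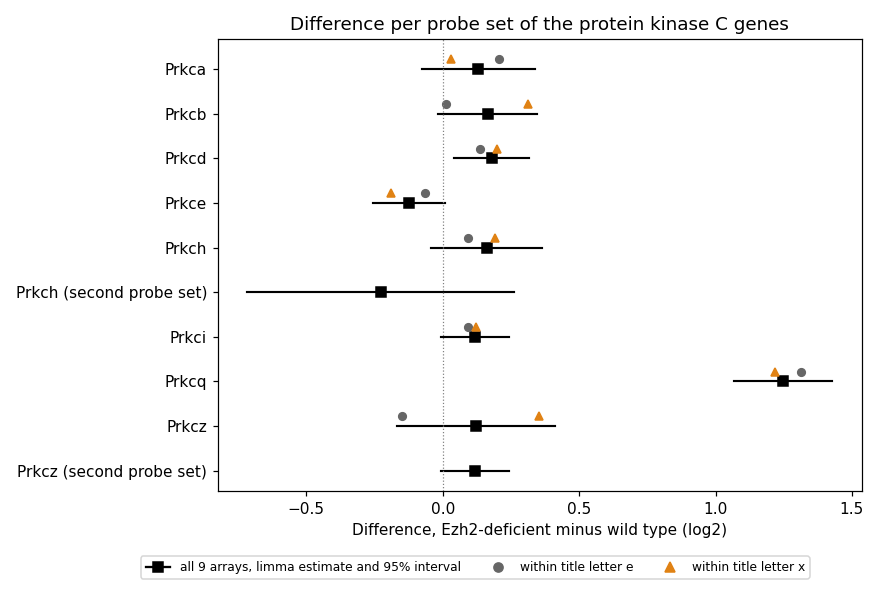
Difference between Ezh2-deficient and wild-type hearts (x axis, log2) for each probe set of the protein kinase C genes, as limma's estimate with its unadjusted 95% interval (squares) and as the mean difference within title letters e (circles) and x (triangles). Prkcq lies at 1.25, with 1.31 and 1.22 within the letters, and the intervals of the other 7 genes at their main probe sets end at or below 0.41.

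The rest of the pathway was described from 10 lists of neighbouring genes, which held 93 measured genes outside the family. Of these 1, Stk39, passed limma's test, as lower. Over all probe sets 0.0347% passed in either direction and 0.0104% as lower. The call of Stk39 was known when the list was written, so nothing is read from this count. Stk39 encodes a kinase of cation-chloride cotransport that protein kinase C theta is known to phosphorylate in human T cells. It read 10.68, 10.46, 10.56 and 10.53 in Ezh2-deficient hearts, against 11.05, 10.91, 11.07, 11.10 and 11.05 in wild-type hearts, and the groups did not overlap. The difference was -0.48 (SE 0.06, limma adjusted p = 0.0364), a call lost with the Y-linked covariate and in each fit without 1 array other than that without wild-type heart 2.

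Upstream of the kinases, 0 of 6 measured Gq-coupled receptors passed limma's test and 2 had an unadjusted p under 0.05, with a median difference of 0.007. For this list and those below, the share of all probe sets with an unadjusted p under 0.05 was 10.7%. F2r, the thrombin receptor, read 9.56 ± 0.16 in Ezh2-deficient hearts and 9.10 ± 0.12 in wild-type hearts (SD, n = 4 and 5; difference 0.45, limma adjusted p = 0.125). Ednrb, an endothelin receptor, differed by 0.27 (SE 0.06, limma adjusted p = 0.175). Of 8 G proteins and their regulators 0 passed and 2 had an unadjusted p under 0.05, on opposite sides, with a median of 0.09. Rgs2, which shortens Gq signalling, read 9.20, 9.01, 9.26 and 9.27 in Ezh2-deficient hearts, against 9.34, 9.72, 9.56, 9.60 and 9.62 in wild-type hearts. The groups did not overlap for Rgs2, nor for F2r, Ednrb and Rgs4. Neither did they for Dgke, Unc13b, Chn2, Akap12, Tnni3 and Msn below, and limma called none of these genes. The Rgs2 difference was -0.38 (SE 0.08, limma adjusted p = 0.143). Rgs4, of the same family, differed by 0.23 (SE 0.08, limma adjusted p = 0.324).

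Of 14 genes of the phospholipase C family, most of them encoding enzymes that make diacylglycerol, 0 passed limma's test. Among the 14, 1 had an unadjusted p under 0.05, and the median difference was 0.005. Plcg2 differed by 0.29 (SE 0.09, limma adjusted p = 0.297) and Plcg1 by -0.10 (SE 0.05). Of 7 diacylglycerol kinases, which remove it, 0 passed and 6 had a lower mean, with a median of -0.03; 1 had an unadjusted p under 0.05. That was Dgke, at 7.71 ± 0.17 in Ezh2-deficient hearts and 8.03 ± 0.13 in wild-type hearts (difference -0.32, limma adjusted p = 0.256), while Dgki differed by 0.08. Of 8 genes from other protein families with members that bind diacylglycerol, 0 passed. Among these 8, 7 had a higher mean and 2 had an unadjusted p under 0.05, with a median of 0.07. Unc13b, a vesicle priming factor, differed by 0.35 (SE 0.07, limma adjusted p = 0.125), and Chn2, a GTPase-activating protein for Rac, by 0.27 (SE 0.05, limma adjusted p = 0.129).

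Of 5 related kinases examined outside the family, 0 passed limma's test and 0 had an unadjusted p under 0.05. All 5 had a higher mean, with differences of 0.02 to 0.15 and a median of 0.07. Prkd1, Prkd2 and Prkd3, the protein kinases D that protein kinase C activates, differed by 0.02, 0.15 and 0.11, and Pkn3 by 0.07. Among 9 priming kinases, chaperones and phosphatases 0 passed and 1 had an unadjusted p under 0.05, with a median of -0.02. The chaperone gene Hsp90aa1 differed by 0.30 (SE 0.12) and the phosphatase gene Phlpp1 by -0.07 (SE 0.05).

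Among 15 anchors and polarity partners 0 passed limma's test, 2 had an unadjusted p under 0.05, and the median was -0.001. Akap12, a scaffold for kinases A and C, differed by 0.35 (SE 0.10), and Cavin3, a caveolar protein that binds protein kinase C delta, by 0.32 (SE 0.11). Among 13 substrates 0 passed and 5 had an unadjusted p under 0.05, 4 higher and 1 lower, with a median of 0.09. Tnni3, cardiac troponin I, read 13.02 ± 0.05 in Ezh2-deficient hearts and 13.19 ± 0.05 in wild-type hearts (difference -0.17, limma adjusted p = 0.239), and Marcksl1, a membrane-bound actin regulator, differed by 0.22 (SE 0.06). Of 8 partners of theta in T cells, Stk39 included, 1 passed and 4 had an unadjusted p under 0.05, with a median of 0.02, and Msn, encoding moesin, differed by 0.34 (SE 0.10, limma adjusted p = 0.293).

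**Figure D3:**
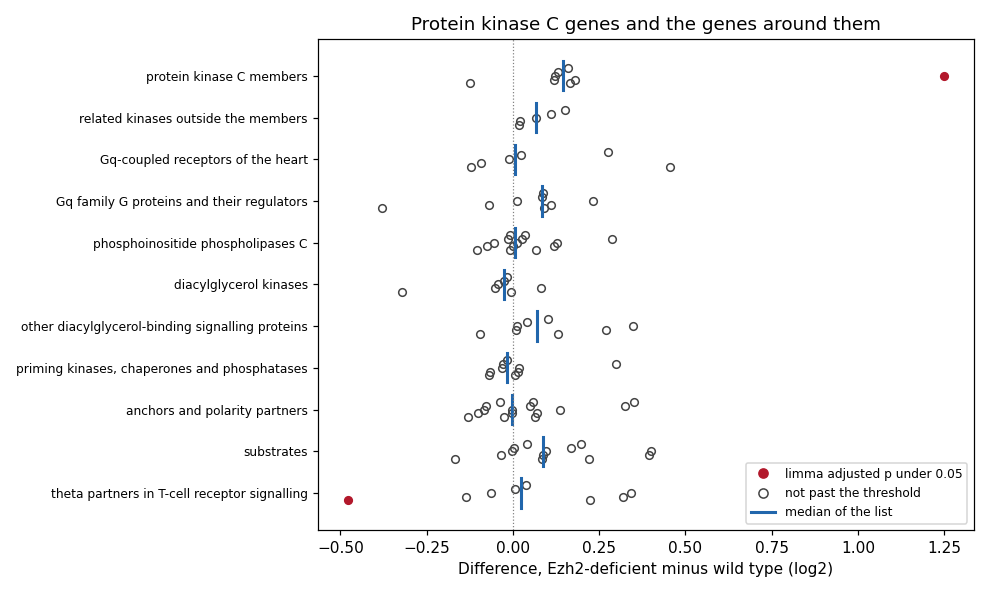
Difference between Ezh2-deficient and wild-type hearts (x axis, log2) for each protein kinase C gene and each gene of the 10 neighbouring lists (rows), 1 circle per gene, filled where limma's adjusted p was under 0.05, with a bar at the median of the row. Prkcq at 1.25 and Stk39 at -0.48 are the filled circles, and the next largest difference is that of F2r at 0.45.

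Because theta is prominent in T cells, platelets and skeletal muscle, the markers of those and other cell types were set beside Prkcq. Of 10 measured T-cell markers 0 passed limma's test, 0 had an unadjusted p under 0.05, and their mean ran from 6.60 to 6.97 in Ezh2-deficient hearts and from 6.55 to 6.71 in wild-type hearts. Ezh2-deficient heart 3 lay above the wild-type range and the other 3 within it. The part of T cells in the Prkcq values was not tested. Cd3e and Thy1 differed by 0.16 and 0.21, not past the threshold. Of 18 skeletal muscle markers 0 passed and 0 had an unadjusted p under 0.05, and their mean ran from 6.84 to 6.97 in Ezh2-deficient hearts and from 6.72 to 6.90 in wild-type hearts. Of 6 platelet markers 0 passed and 0 had an unadjusted p under 0.05, with means of 7.42 to 7.96 in Ezh2-deficient hearts and 7.38 to 7.96 in wild-type hearts. The macrophage, neural, smooth muscle and cardiomyocyte lists (8, 8, 8 and 10 markers) also had 0 past limma's test, with 0, 0, 1 and 2 at an unadjusted p under 0.05. Their means overlapped between the groups.

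Of the 10 fibroblast markers 0 passed limma's test. All 10 had a higher mean in Ezh2-deficient hearts and 7 had an unadjusted p under 0.05, where 10.7% of all probe sets had. Their mean ran from 10.84 to 11.13 in Ezh2-deficient hearts and from 10.10 to 10.76 in wild-type hearts, without overlap. The list mean differed by 0.53 and the single markers by 0.12 to 0.84. The part of fibroblasts in the Prkcq values was not tested. In wild-type hearts 1 to 5 the fibroblast mean was 10.76, 10.51, 10.44, 10.52 and 10.10. Prkcq read 6.88, 6.75, 7.10, 7.10 and 6.81 in the same hearts.

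**Figure D4:**
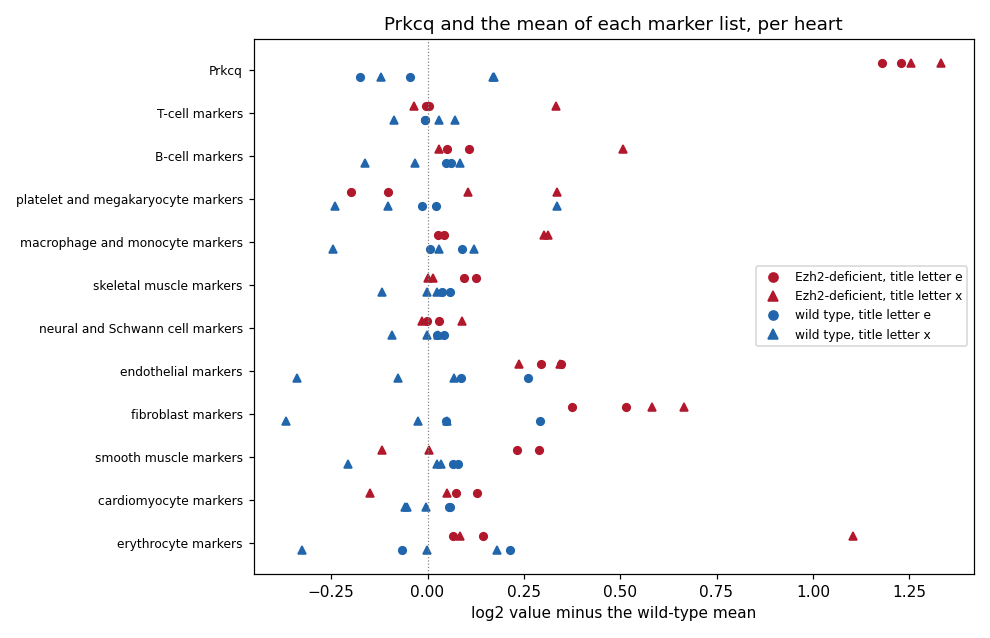
Log2 value minus the wild-type mean (x axis) of Prkcq and of the mean of each cell-type marker list, for every heart, Ezh2-deficient in red above wild type in blue, with circles and triangles for title letters e and x. Fibroblast means do not overlap between the groups and differ by 0.53, and T-cell and skeletal muscle means overlap.

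The genes whose pattern over the 9 hearts lay nearest to that of Prkcq were found by the root mean square distance between log2 values, each gene centred on its wild-type mean, over 19934 other genes. They were, in order of nearness, Col8a1 (distance 0.25), Postn (0.31), Col14a1 (0.33), Ccn2 (0.33) and Slit2 (0.34). Col8a1 and Col14a1 encode collagen chains, Postn and Ccn2 matricellular proteins and Slit2 a secreted guidance ligand. Their differences were 1.03, 1.37, 0.98, 0.99 and 0.87. For each the groups did not overlap, which the choice by nearness to Prkcq favoured. Over all probe sets 1.79% were higher without overlap. The Ezh2-deficient hearts of Prkcq had an SD of 0.06, against 0.16 to 0.36 for these 5 genes, so that Prkcq was the most even of the 6 across the Ezh2-deficient hearts. Nearness of this kind mostly follows the size of the genotype difference and is a description only.

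**Figure D5:**
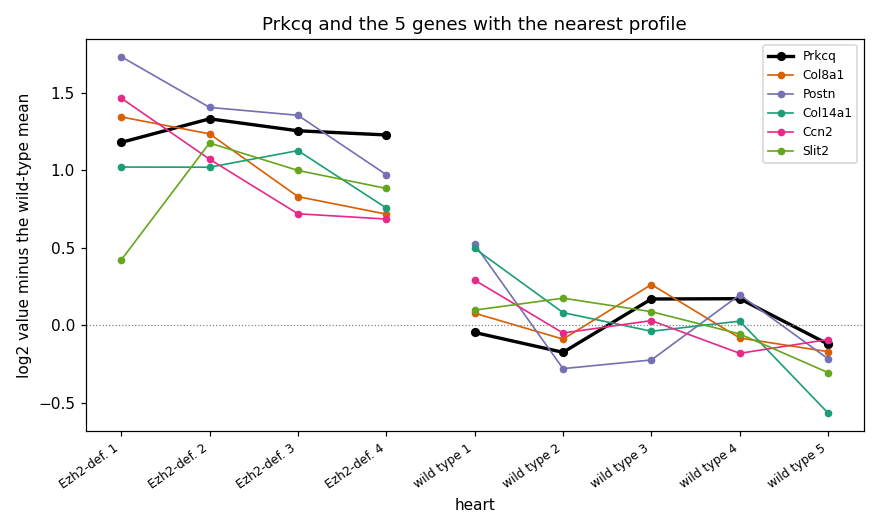
Log2 value minus the wild-type mean (y axis) in each heart (x axis, Ezh2-deficient hearts 1 to 4 and then wild-type hearts 1 to 5) for Prkcq in black and the 5 genes of nearest profile. Prkcq stays between 1.18 and 1.33 in the Ezh2-deficient hearts, whereas the other genes spread more widely there.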

How the data were processed

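The authors deposited log2 values for each probe set on each array. Per the submitters' processing notes these came from RMA in Affymetrix Power Tools, with no version or setting stated. The log2 scale was read from the values, 2.18 to 15.0. Of 28815 probe sets 21780 had 1 gene symbol in the platform annotation, 1605 had several and 5430 none. Of the 21780, 21689 were matched to a current symbol through a gene identifier. The members and gene lists were chosen with earlier results of these data known.

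Groups came from the description labels, and replicate numbers only name hearts. The labels speak of 5 and 4 mice, which were treated as separate animals. Ezh2-deficient and wild-type arrays were compared with limma 3.58.1 in R 4.3.3 (lmFit and eBayes, two-sided, no term but genotype). P-values received the Benjamini-Hochberg adjustment over the whole table, with a threshold of 0.05. The number of arrays limits the precision: the median standard error was 0.0674. Sex, read from Xist and 3 Y-linked genes (female in 2 of 4 Ezh2-deficient and 1 of 5 wild-type hearts), title letter, normalization, array weights, variance model, dim probe sets, probe set choice and each array were varied. Pearson's r between arrays lay between 0.9897 and 0.9973. The fit was tested on simulated data. Named were the members, Ezh2, Prkd1 to Prkd3, called list genes, the 2 of smallest p per list, described where they bear on a result, and the 5 nearest profiles to Prkcq.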

Additional observations from a re-analysis of the deposited data

Results flagged for a closer look

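Among 20 groups of hearts (10 probe sets, either genotype), 2 held a heart far from the others by Dixon's criterion, and chance gives about 1 in 20. Prkcb in wild-type heart 5 read 6.96, with the other wild-type hearts at 7.11 to 7.16. The second Prkcz probe set in Ezh2-deficient heart 2 read 6.70, with the other Ezh2-deficient hearts at 6.61 to 6.62. Without wild-type heart 5 the Prkcb difference was 0.13, against 0.17 with it, and it was not past limma's threshold either way.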

How the results depend on the processing

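The family was picked with the Prkcq difference known, so its values under other settings describe it and support nothing. The difference ran from 1.20 to 1.31 over 23 alternatives and from 1.20 to 1.29 in the fits without 1 array. Within title letter e it was 1.31 (limma adjusted p = 0.651) and within letter x 1.22 (0.198). In those small fits 0 of 28815 probe sets passed limma's test, so the count of members called was 0 there, and it was 1 (Prkcq) in the others. No other member passed in any alternative. Signs turned for Prkcz within letter e (-0.15) and with array weights (-0.014). For Prkch they turned with the mean over its probe sets (-0.034) and with its probe set of largest variance (-0.23), both of which bring in the second probe set. The count of neighbouring pathway genes called was 1 (Stk39) with all arrays and 0 with the Y-linked mean as covariate, without wild-type arrays 4 and 5 and within either letter. It ran from 0 to 1 when each array was left out, and was 1 only without wild-type array 2. The cause was not tested. The interaction of genotype and letter stayed at 0 members in each of 4 alternatives. Prkcb has no value with dim probe sets left out, being among them. No paired analysis was possible because replicate numbers were given in sample order and pair no hearts.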
